A study of Mus musculus with 88 samples.

Results

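The change between 21 and 31 days of age was followed in the hearts of dKO mice on chow. These mice lack apolipoprotein E, a ligand that clears lipoprotein remnants from blood, and SR-BI, the product of Scarb1, through which cells take up cholesterol from high-density lipoprotein. The members are the 20 arrays labelled dKO and chow at these ages, 10 at 21 days and 10 at 31 days, of 88 arrays in all. The rule that picks these arrays uses genotype, diet and age, and no measured value. Whole hearts were taken, and each mouse had its own array. The groups share the genotype SR-BI-/- apoE-/- and the chow diet, and differ in age. Per the study's design text, such mice show no coronary artery disease that can be detected at 21 days, and have small infarcts with heart failure at 31 days. The comparison thus asks which transcripts changed as disease appeared within one genotype. Growth from a weanling to an older mouse falls in the same interval, and within these 20 hearts it and the disease cannot be told apart. The change over the same interval was therefore set beside that of HET mice on chow, SR-BI+/- apoE-/- (9 hearts at 21 days and 10 at 31 days), which also lack apolipoprotein E and stay free of detectable disease per the design text. It was also set beside that of SR-BI-/- apoE-/- mice given probucol, a lipid-lowering antioxidant drug, in the diet (6 and 8 hearts). The labels give no sex, strain or part of the heart.

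When a coronary artery is blocked, heart muscle cells die, and chemokines of the CCL2 family draw monocytes that carry the receptor CCR2 out of the blood. The monocytes become macrophages, which take up debris and lipid, present antigen on MHC class II molecules, and release proteases, complement and growth factors. Fibroblasts then lay down matrix that becomes a scar, while the surviving muscle cells express stress genes. A healthy adult heart draws most of its energy from fatty acids burned in mitochondria, and a failing heart often loses part of the transcripts for that machinery.

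Signals were divided by the median signal of their array, so a relative signal of 1 is that of the middle probe set of the array. Differences are means of log2 relative signal at 31 days minus 21 days, with the standard error, and each adjusted p is from limma with Benjamini-Hochberg adjustment over 5672 genes. Median signals ran from 27.8 to 41.7 at 21 days and from 38.5 to 65.8 at 31 days. A residual pattern divides the series into sets of 68 and 20 arrays, and the smaller set held 6 of the 10 hearts at 21 days and 0 of the 10 at 31 days. Scarb1, the targeted gene, had a median relative signal of 1.92 and 2.04 at 21 and 31 days in dKO hearts, and 4.92 and 4.12 in HET hearts. The probe sets of Apoe lay at or near the floor in both groups. All 11 tested heart muscle markers lay in the brightest 20% of genes, which fits the labelled tissue. The 3' to 5' ratio of the actin control probe sets was higher at 31 days (a mean log2 value of 0.39 ± 0.35, SD, n = 10) than at 21 days (-0.16 ± 0.11, SD, n = 10), and that of Gapdh was -0.16 ± 0.13 and -0.08 ± 0.06. The levels of Xist and Eif2s3y, 2 sex-linked genes, showed both sexes in each group, with Eif2s3y above Xist in 4 of 10 hearts at 21 days and 6 of 10 at 31 days. The title and age field of replicate 2 at 21 days give 21 days, while its description gives 31 days. Without it 383 genes rose and 1291 fell.

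Between 21 and 31 days 394 of the 5672 tested genes rose (6.95%) and 1420 fell (25.0%) after median centring, 1814 in all (32.0%). Counts of rises and falls in the gene lists below are to be read against these shares. The balance of the directions depends on the scale. With the signals as deposited 3558 genes rose and 59 fell, after quantile normalization 590 (10.4%) rose and 700 (12.3%) fell, and with the array set as a block 353 rose and 884 fell. Within the larger array set, 4 hearts against 10, 308 rose and 232 fell. The median difference of all tested genes was -0.15 after median centring, 0.50 as deposited, -0.02 after quantile normalization and -0.09 with the array set as a block. A gene is said below to hold in all 4 settings if it passed in the same direction in each of these 4 fits to the 88 arrays. That was so for 249 rises (4.39%) and 55 falls (0.970%). Falls went with brightness after median centring: the median difference ran from 0.03 in the dimmest 20% of genes to -0.33 in the brightest, and 6.08% and 52.8% of these genes fell. After quantile normalization the medians were 0.01 and -0.05, and 4.49% and 24.8% fell. With the actin ratio as a covariate 285 rose and 1000 fell. The part of the array set, of brightness and of the actin ratio in single differences was not tested beyond these settings. The groups did not overlap at all for 26 higher genes (0.458%) and 42 lower genes (0.740%).

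**Figure D1:**
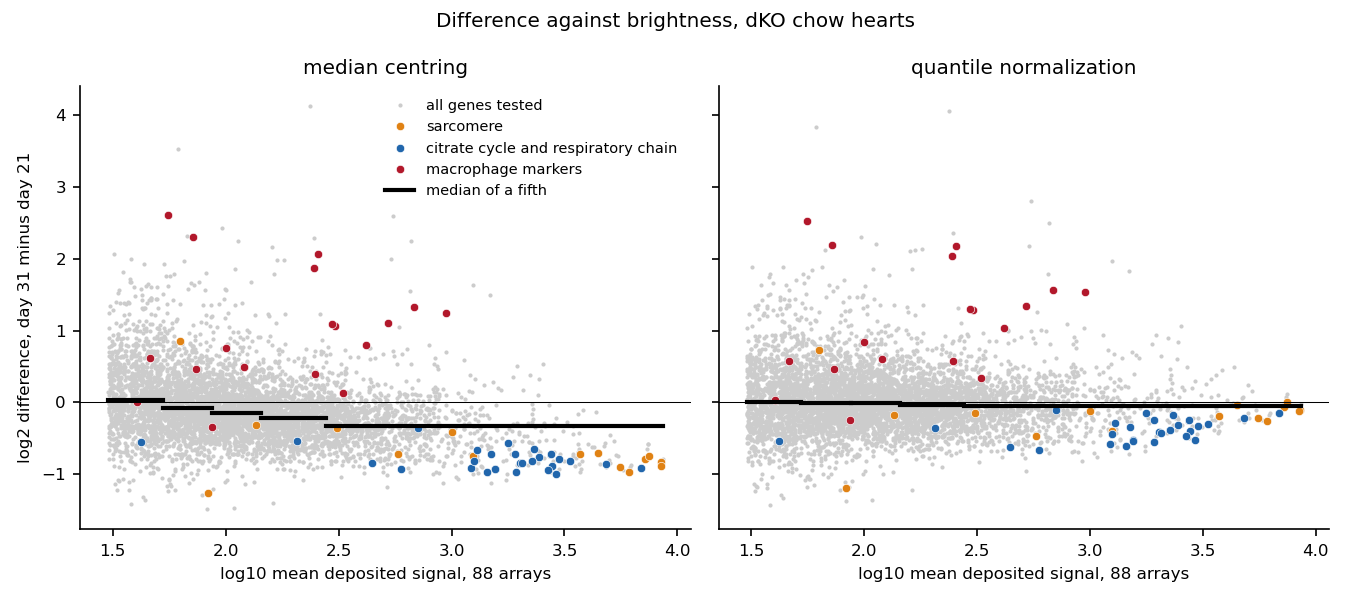
Each grey point is 1 of the 5672 tested genes, with the log10 of its mean deposited signal over 88 arrays on the horizontal axis and its log2 difference (31 minus 21 days, dKO chow) on the vertical axis, after median centring (left) and quantile normalization (right). Black lines give the medians of 5 equal groups of genes by signal, which end at -0.33 on the left and at -0.05 on the right. Coloured points mark the genes of 3 lists: most macrophage markers lie above 0 in both panels, and citrate cycle and respiratory chain genes lie below 0 in both.

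The 12 largest rises were those of Ccl8, Arg1, Ccr2, Apod, Saa3, Adam8, Adgre1, H2-Aa, H2-Ab1, Timp1, Sprr1a and Ncf4, of which most belong to leukocytes or draw them in. Ccl8, a chemokine that attracts monocytes, had a relative signal of 0.338 to 2.24 at 21 days (median 0.469) and of 4.81 to 16 at 31 days (median 9.02). Every heart at 31 days was above every heart at 21 days. The difference was 4.12 ± 0.34 (adjusted p = 1.93e-16), a 17.4-fold rise. In HET hearts the medians were 0.353 and 0.336, and in dKO hearts on probucol 0.32 and 0.6. Ccl2, the main attractant of CCR2-bearing monocytes, went from a median of 1.95 (lowest 0.21, highest 2.48) to 5.91 (lowest 3.25, highest 13.9), again with no overlap. It rose by 1.98 ± 0.37 (adjusted p = 1.79e-05). Ccl7, a close relative of Ccl2, rose by 1.66 ± 0.33 (adjusted p = 4.29e-05), and Cxcl14, a chemokine for myeloid cells, by 1.60 ± 0.30 (adjusted p = 1.68e-05). Of 13 tested chemokines and cytokines 8 rose and 0 fell, against 6.95% and 25.0% of all genes, and 7 rises held in all 4 settings. Their median difference was 1.05.

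The receptor rose with its ligands. Ccr2, the receptor that marks inflammatory monocytes, had a median of 0.326 (lowest 0.108, highest 0.857) at 21 days and of 1.84 (lowest 0.865, highest 2.8) at 31 days. The lowest heart at 31 days lay just above the highest at 21 days. Its difference was 2.60 ± 0.38 (adjusted p = 1.26e-07), while in HET hearts it rose by 1.37 ± 0.39 (adjusted p = 0.0166), and the 2 changes did not differ past the threshold (1.23 ± 0.55, adjusted p = 0.084). Some hearts of both genotypes lay at the floor at 21 days, so these sizes are not exact. Adgre1, which encodes the macrophage surface protein F4/80, rose by 2.30 ± 0.35 (adjusted p = 2.79e-07), although 1 heart at 21 days, at 2.11, lay above the lowest at 31 days. Another, dimmer probe set of Adgre1 that did not pass the filter differed by 0.09.

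Most macrophage markers rose. Of 18 tested markers, of 24 listed, 14 rose and 0 fell, 13 of them in all 4 settings, with a median difference of 0.93 after median centring and 1.16 after quantile normalization. Within the larger array set 14 rose, with a median of 1.16. In HET hearts 5 of the 18 rose over the same interval, against 6.82% of all genes. On probucol 0 did, where 0.0529% of all genes rose. The change on chow was higher than that on probucol for 4 of the 18, 3 of them in all 4 settings. In dKO chow hearts the summed relative signal of the 18 was 49.7 to 102 at 21 days (median 68.3) and 101 to 240 at 31 days (median 139). In whole-heart RNA more cells of a type and more RNA per cell cannot be told apart. Cd68, a lysosomal protein of macrophages, had values of 3.28 to 8.1 (median 6.26) at 21 days and of 8.71 to 22 (median 11) at 31 days. The ranges did not overlap, and Cd68 rose by 1.07 ± 0.15 (adjusted p = 4.96e-08). Lyz2, the lysozyme of myeloid cells, rose by 1.25 ± 0.16 (adjusted p = 3.58e-09), Mpeg1, a pore-forming protein of macrophages, by 1.11 ± 0.15 (adjusted p = 2.95e-08), and Ctss, a cysteine protease that trims the MHC class II invariant chain, by 1.33 ± 0.19 (adjusted p = 8.46e-08). Csf1r, the receptor for the macrophage growth factor and named here after its values were seen, rose less, by 0.40 ± 0.13 (adjusted p = 0.0137), and with the mean of its probe sets it did not pass (0.44, adjusted p = 0.108).

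Arg1 encodes arginase, an enzyme of macrophages in repair and of the urea cycle. At 21 days it lay at the floor in all 10 hearts, and at 31 days its median relative signal was 1.94, its highest 3.81. Of the 10 hearts at 31 days 9 were above all hearts at 21 days, and 1 was at the floor. The fitted rise was 11.5-fold (3.52 ± 0.36 against the floor, adjusted p = 4.71e-12). It is neither an exact value nor a bound, since hearts of both ages lay at the floor. HET hearts had medians of 0.126 and 0.146, and dKO hearts on probucol of 0.194 and 0.106. Adam8, a surface protease of leukocytes, rose by 2.32 ± 0.34 (adjusted p = 1.14e-07) and Ncf4, a subunit of the phagocyte NADPH oxidase, by 2.07 ± 0.37 (adjusted p = 6.76e-06). For Adam8 the hearts at 31 days spread widely and the ranges overlapped. For Ncf4 only replicate 8 at 31 days, at 0.211, lay inside the range at 21 days, and the next lowest heart was at 0.788. Hearts at 21 days lay at the floor for Adam8 (replicate 5) and Ncf4 (replicates 4 and 6), so neither size is exact.

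Few tested markers of other leukocytes passed the threshold. Of 7 tested neutrophil markers 0 rose and 1 fell (Elane, neutrophil elastase, -0.52 ± 0.17, adjusted p = 0.0117), and their summed signal had medians of 12.9 and 12.8. The fall of Elane did not hold in all 4 settings. Of 6 tested markers of T, B and NK cells 0 rose and 1 fell, with sums of 12.4 and 11.5. Many defining genes of these cells were not bright enough to be tested: 7 of 14 neutrophil and 6 of 20 lymphocyte markers passed the filter. Lcn2, lipocalin of neutrophils and injured tissue and named here after its values were seen, differed by 0.38 on its brighter probe set and by 1.49 on its other one. Among 10 leukocyte adhesion genes 3 rose and 1 fell. Cd53, a tetraspanin of leukocytes, rose by 1.78 ± 0.30 (adjusted p = 2.77e-06). Itgb2, the beta chain of leukocyte integrins, had a highest value of 0.745 at 21 days and a lowest of 0.773 at 31 days, and rose by 1.61 ± 0.37 (adjusted p = 0.000369).

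**Figure D2:**
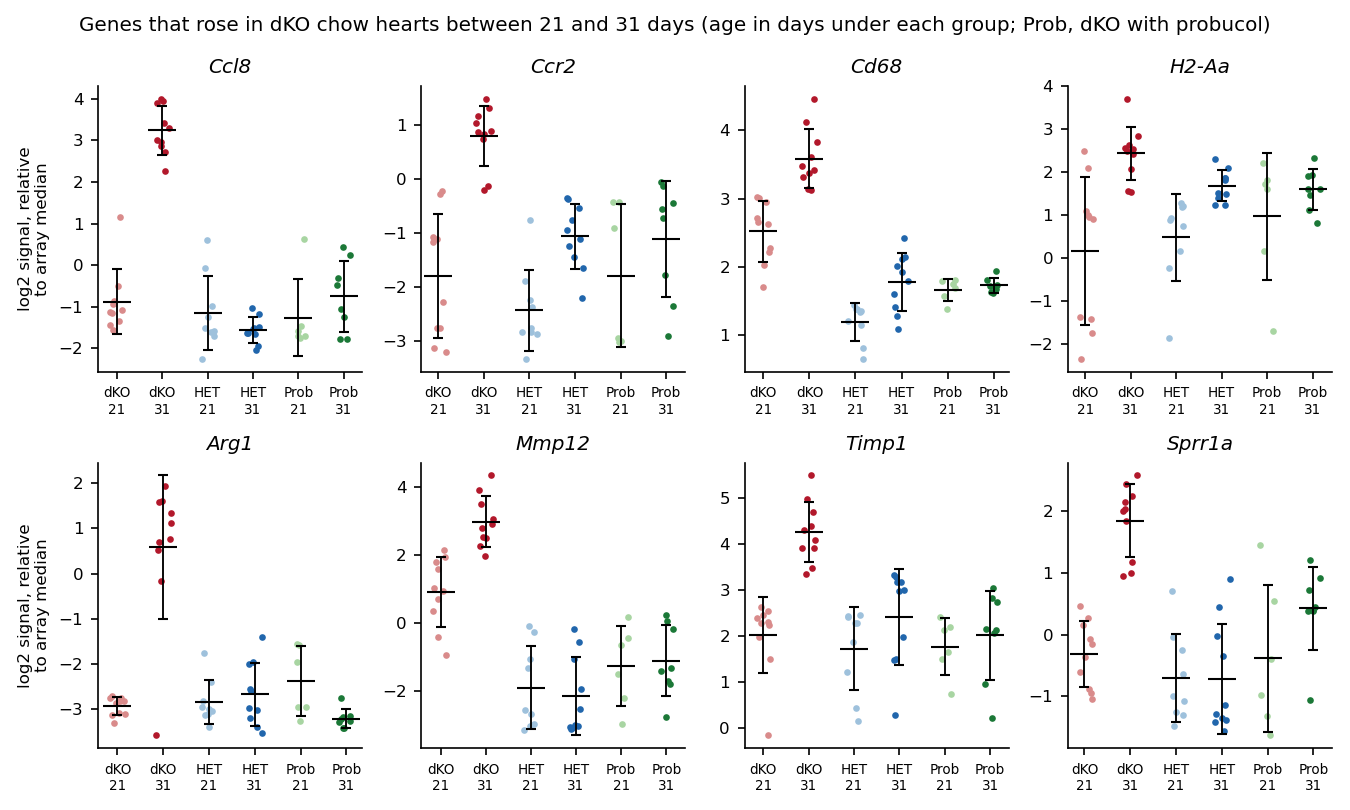
Log2 signal relative to the array median (vertical axes) of 8 genes that rose, by group (horizontal axes: dKO and HET on chow, and dKO with probucol, each at 21 and 31 days). Each point is 1 heart, and black bars give the mean and SD. In dKO chow hearts Ccl8, Ccr2, Cd68, Timp1 and Sprr1a do not overlap between 21 and 31 days, and Arg1 lies at the floor at 21 days.

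Genes of antigen presentation rose together. H2-Aa, the alpha chain of the class II molecule I-A, went from a median of 1.9 (lowest 0.196, highest 5.6) to 5.73 (lowest 2.91, highest 13.1). The 21-day hearts spread widely and overlapped with those at 31 days. The difference was 2.28 ± 0.41 (adjusted p = 7.28e-06). H2-Ab1, the beta chain, rose by 2.25 ± 0.35 (adjusted p = 3.7e-07), and H2-DMb1, a subunit of the loader of class II peptides, by 1.58 ± 0.34 (adjusted p = 0.000163). Cd74, the invariant chain, had 2.81 to 9.26 at 21 days and 10 to 28.6 at 31 days, with no overlap, and rose by 1.55 ± 0.23 (adjusted p = 2.03e-07). H2-Eb1, named after its values were seen, rose by 0.70 ± 0.23 (adjusted p = 0.0135), but without replicate 3 of the 21-day hearts, whose value was 0.51, the difference was 0.37 (adjusted p = 0.0915). In all, 5 of 8 tested class II genes rose and 0 fell, against 6.95% and 25.0% of all genes. All 5 rises held in all 4 settings, while 4 rose within the larger array set. The median of the 8 was 1.13. Ciita, the factor that switches on class II genes, had medians of 1.16 and 0.891 and a difference of -0.33 ± 0.25 (adjusted p = 0.329). The class II rise was shared in part by HET hearts, where Cd74 rose by 1.01 ± 0.24 (adjusted p = 0.0033), and 1 of the 8 genes, H2-Ab1, differed in its change between genotypes (2.02 ± 0.49, adjusted p = 0.00251), a difference that did not hold in all 4 settings.

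Class II promoters carry a conserved block of boxes, the last of which, the Y box, is bound by the factor NF-Y. The promoters of 3 class II genes, chosen by name, are printed from the RefSeq promoter table (GRCm38.p6). They run from 250 bases before to 50 bases after the gene's start, 5' to 3' on the gene's own strand. The promoters of the other tested class II genes are not printed, and the Y box was not among the motifs planned at first. H2-Aa lies at chr17:34287774-34288073 (minus strand), H2-Eb1 at chr17:34305617-34305916 (plus strand) and H2-DMb1 at chr17:34152941-34153240 (plus strand). Capitals mark the 7 letters TGATTGG, the core of the Y box.
H2-Aa: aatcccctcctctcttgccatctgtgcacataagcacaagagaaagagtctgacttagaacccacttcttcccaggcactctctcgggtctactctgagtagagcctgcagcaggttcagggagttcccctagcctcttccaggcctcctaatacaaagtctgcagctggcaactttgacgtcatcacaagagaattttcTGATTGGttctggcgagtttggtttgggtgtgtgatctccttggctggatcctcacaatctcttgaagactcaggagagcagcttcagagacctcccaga
H2-Eb1: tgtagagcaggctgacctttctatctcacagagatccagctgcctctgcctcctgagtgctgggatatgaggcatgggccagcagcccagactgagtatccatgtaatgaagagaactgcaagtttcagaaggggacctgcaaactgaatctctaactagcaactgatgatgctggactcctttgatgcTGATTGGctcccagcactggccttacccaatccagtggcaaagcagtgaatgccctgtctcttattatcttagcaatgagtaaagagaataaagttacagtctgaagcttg
H2-DMb1: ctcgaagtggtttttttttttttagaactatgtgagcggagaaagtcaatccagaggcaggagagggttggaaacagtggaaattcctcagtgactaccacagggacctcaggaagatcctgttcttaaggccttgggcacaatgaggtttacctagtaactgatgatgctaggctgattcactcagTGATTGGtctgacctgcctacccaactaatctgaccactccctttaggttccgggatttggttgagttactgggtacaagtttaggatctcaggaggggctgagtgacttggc
Each promoter held 1 match, on the gene's strand, whose first base lay 50, 61 and 63 bases before the start, respectively. The longest run that H2-Eb1 and H2-DMb1 shared was aactgatgatgct, 13 bases long, which began 89 and 92 bases before their starts. H2-Aa shared no run longer than 8 bases with either. Over all genes the 7 letters were not more frequent among rises: of the genes with a promoter in the table, searched on both strands, 11.3% of the 302 that rose, 11.5% of the 1179 that fell and 11.8% of the 4532 tested held a match, as did 7.82% of all 32851 promoters. A match is a description of the letters only.

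Complement genes and a receptor of complement rose too. C3ar1, the receptor for the fragment C3a on myeloid cells, had values of 0.882 to 1.94 (median 1.25) at 21 days and of 2.47 to 4.14 (median 3.2) at 31 days. The ranges did not overlap, and C3ar1 rose by 1.35 ± 0.14 (adjusted p = 4.86e-12). C1qa and C1qb, subunits of the starter of the classical pathway and made by macrophages, rose by 0.62 ± 0.15 (adjusted p = 0.001) and 0.74 ± 0.14 (adjusted p = 2.73e-05). Cfp, properdin, which stabilises the alternative pathway, rose by 0.76 ± 0.19 (adjusted p = 0.00108). Of 10 tested complement genes 6 rose and 0 fell, against 6.95% and 25.0% of all genes. All 6 rises held in all 4 settings, and the median of the 10 was 0.50. Of 11 tested interferon-stimulated genes 1 rose (Isg20, an exonuclease, 1.05 ± 0.34, adjusted p = 0.0122) and 0 fell, with a median of 0.38, and 5 rose after quantile normalization.

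Genes of lipid handling rose in part. Of 11 tested genes of cholesterol efflux and targets of the sterol sensor LXR 5 rose and 1 fell, against 6.95% and 25.0% of all genes. The 5 rises held in all 4 settings. Scd1, a fatty acid desaturase, had a median of 7.81 (lowest 4.24, highest 13.3) at 21 days and of 16.1 (lowest 11.6, highest 22.7) at 31 days. It rose by 1.12 ± 0.21 (adjusted p = 2.49e-05) and by 1.45 ± 0.22 (adjusted p = 9.06e-06) in HET hearts. Abca1, the exporter of cholesterol to apolipoprotein A-I, likewise rose in dKO hearts (0.76 ± 0.16, adjusted p = 9.19e-05) and in HET hearts (0.86 ± 0.16, adjusted p = 0.000365), but its other probe set differed by 0.03 in dKO hearts. Pltp, the phospholipid transfer protein, rose by 0.67 ± 0.13 in dKO hearts (adjusted p = 3.22e-05) against a difference of 0.00 ± 0.13 in HET hearts, and the changes differed (0.66 ± 0.18, adjusted p = 0.00675). Abcg1, an exporter of cholesterol to high-density lipoprotein, rose by 0.48 ± 0.15 (adjusted p = 0.00981). Of 5 tested genes of sterol synthesis 1 rose and 2 fell, with Hmgcs1, an early enzyme of the pathway, falling by 0.71 ± 0.16 (adjusted p = 0.000194). None of these 3 held in all 4 settings.

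Lysosomal genes were divided. Of 17 tested 6 rose and 1 fell, against 6.95% and 25.0% of all genes, and the rises held in all 4 settings. Lipa, the acid lipase that frees cholesterol from its esters, rose by 1.17 ± 0.27 (adjusted p = 0.000318), Ctsz, a cathepsin, by 0.88 ± 0.17 (adjusted p = 5.03e-05), and Gusb, beta-glucuronidase, by 0.81 ± 0.14 (adjusted p = 7.5e-06). Grn, progranulin, rose by 0.44 ± 0.10 (adjusted p = 0.000447), but its other probe set differed by -0.54, and their mean by -0.05 (adjusted p = 0.846). Apod, an apolipoprotein of injured tissue, belongs to no list and was among the largest rises. It had 1.25 to 5.99 (median 3.35) at 21 days and 6.29 to 43.4 (median 23.3) at 31 days, without overlap, and rose by 2.59 ± 0.34 (adjusted p = 6.22e-09). Its HET medians were 0.616 and 0.274. Saa3, an acute-phase protein made in inflamed tissue, rose by 2.42 ± 0.40 (adjusted p = 2.02e-06), with ranges that overlapped. Replicate 4 at 21 days lay at the floor for Saa3, so this size is not exact.

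Matrix genes split by class. Timp1, the inhibitor of metalloproteinases induced by injury, had a median of 4.89 (lowest 0.892, highest 6.17) at 21 days and of 18.3 (lowest 10.1, highest 44.7) at 31 days. The ranges did not overlap, and the difference was 2.25 ± 0.31 (adjusted p = 1.73e-08). Mmp12, the macrophage elastase, had a median of 1.99 at 21 days (0.173 in HET hearts of that age) and rose by 2.06 ± 0.45 (adjusted p = 0.000199) to a median of 7.22. Of 20 tested matrix glycoproteins and proteases 8 rose, 7 of them in all 4 settings, and 4 fell, none of them in all 4. Bgn, the proteoglycan biglycan, rose by 0.51 ± 0.10 (adjusted p = 6.07e-05), whereas Lama2, a laminin chain of muscle basement membrane, fell by 0.76 ± 0.10 (adjusted p = 5.75e-09). Of 13 tested genes of the transforming growth factor beta and CCN families 4 rose and 0 fell, all 4 in all 4 settings: Tgfb1 itself (1.36 ± 0.43, adjusted p = 0.00968), its target Tgfbi (0.54 ± 0.15, adjusted p = 0.00245), the latency protein Ltbp2 (1.44 ± 0.37, adjusted p = 0.00163) and Ccn5 (1.42 ± 0.31, adjusted p = 0.000244).

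The direction of collagens depended on the scale and the probe set. Of 19 tested collagens and modifying enzymes 2 rose and 3 fell, with a median of -0.08 after median centring and 0.16 after quantile normalization, when 7 rose and 0 fell. As deposited all 19 rose, with a median of 0.57, where the median of all genes was 0.50. The 2 rises, which held in all 4 settings, were Lox, the enzyme that crosslinks collagen (1.86 ± 0.40, adjusted p = 0.000146; its other probe set differed by 0.02), and Col8a1, a short-chain collagen of vessels and remodelling tissue (0.91 ± 0.19, adjusted p = 0.000119). Col3a1, a main fibrillar collagen of scar, had medians of 22.6 and 19.5, with 1 heart at 31 days at 42.4. Its difference of -0.12 ± 0.15 (adjusted p = 0.54) was within the spread of the hearts and had the other sign in 6 of the alternative settings. Its other probe sets differed by 0.29 and 0.75, and those of Col1a2, the partner chain of type I collagen, by -0.25 on the brighter and 0.61 on the dimmer one. In dKO chow hearts at 43 days the median of Col3a1 was 55.6. Of 13 tested fibroblast markers 3 rose and 2 fell, against 6.95% and 25.0% of all genes. In all 4 settings 2 of these rises and 0 of the falls held, and after quantile normalization 6 markers rose and 0 fell. Acta2, smooth muscle actin of vessels and myofibroblasts, fell by 0.76 ± 0.21 (adjusted p = 0.00362), a fall that did not hold in all 4 settings.

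Stress genes of heart muscle moved both ways. Sprr1a, a small proline-rich protein induced in stressed cardiomyocytes, had 0.484 to 1.38 (median 0.839) at 21 days and 1.94 to 5.98 (median 4.05) at 31 days. There was no overlap, and it rose by 2.16 ± 0.29 (adjusted p = 1.73e-08), against -0.02 ± 0.30 in HET hearts. Acta1, the skeletal actin re-expressed under load, rose by 1.49 ± 0.28 (adjusted p = 2.07e-05), and in HET hearts by 1.63 ± 0.29 (adjusted p = 0.000159), with a difference of the changes of -0.14 ± 0.40 (adjusted p = 0.824). Ankrd1, a stretch-responsive protein named here after its values were seen, also rose in both, by 0.54 ± 0.17 in dKO (adjusted p = 0.00821) and 0.79 ± 0.17 in HET hearts (adjusted p = 0.0014). The natriuretic peptides, hormones used as markers of heart failure and named for that reason, did not pass. Nppa had medians of 48.5 and 37 and a difference of -0.30 ± 0.13 (adjusted p = 0.0719), which passed on leaving out replicate 3, 7 or 10 at 21 days or replicate 1 or 2 at 31 days (-0.37 to -0.34, adjusted p 0.0248 to 0.0446) and had the other sign as deposited (0.35). Nppb had medians of 61.6 and 73.3 and a difference of 0.38 ± 0.24 (adjusted p = 0.221), or 0.89 after quantile normalization (adjusted p = 0.0013). Of 16 tested stress and fetal genes 4 rose and 5 fell, against 6.95% and 25.0% of all genes. All 4 rises and 1 of the falls held in all 4 settings. Of the 16 genes, 11 lie in the brightest of the 5 equal groups of genes by signal, of which 52.8% fell. The falls on this list were not tested apart from brightness.

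Among other stress responses, Mt2, a metal-binding metallothionein, had values of 7.9 to 25.4 (median 12.9) at 21 days and of 27 to 47.1 (median 39.3) at 31 days. The groups did not overlap, and Mt2 rose by 1.63 ± 0.20 (adjusted p = 2.67e-09). Hmox1, which breaks down haem, rose by 0.71 ± 0.13 (adjusted p = 1.01e-05), and Hp, haptoglobin, which binds free haemoglobin, by 0.80 ± 0.17 (adjusted p = 0.000116). Lgals3, galectin-3 of macrophages, rose by 1.87 ± 0.36 (adjusted p = 3e-05) and Anxa1, annexin A1, which damps leukocyte influx, by 0.60 ± 0.14 (adjusted p = 0.000361). Of 20 tested S100 proteins, annexins and galectins 7 rose and 2 fell, against 6.95% and 25.0% of all genes. The 7 rises held in all 4 settings. Egr2, an immediate early transcription factor, rose by 1.92 ± 0.36 (adjusted p = 1.68e-05), and it did not pass within the larger array set (0.98, adjusted p = 0.0599). Heat shock genes (12 tested, 8 in the brightest 20%) had 0 rises and 5 falls, and unfolded protein genes (15 tested, 5 in the brightest 20%) had 3 rises and 5 falls, against falls of 25.0% of all genes and 52.8% of the brightest 20%. Among them was the chaperone Hspa5 (-0.82 ± 0.16, adjusted p = 3.47e-05). None of the heat shock and unfolded protein falls held in all 4 settings, while all 3 unfolded protein rises did. Vegfa, the angiogenic factor, fell by 0.68 ± 0.18 (adjusted p = 0.00146), also not in all 4, and 0 of 12 tested hypoxia and angiogenesis genes rose.

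Erythroid genes gave mixed signs. Alas2, the first enzyme of haem synthesis in red cell precursors, rose by 0.68 ± 0.20 (adjusted p = 0.00591) from a median of 20.2 to 28.1. Its medians in HET hearts were 5.96 and 4.33. Hba-a1, alpha globin, fell by 0.58 ± 0.16 (adjusted p = 0.00289), but differed by 0.08 after quantile normalization. Of 7 tested erythroid markers 3 rose and 2 fell, against 6.95% and 25.0% of all genes. How much blood the hearts held was not tested. Cell cycle genes rose in 4 of 19 cases, against 6.95% of all genes. Among them were Cdk1, the mitotic kinase (1.42 ± 0.40, adjusted p = 0.00374), and Ccnb2, cyclin B2 (0.62 ± 0.14, adjusted p = 0.000264), which rose by 0.70 ± 0.14 in HET hearts too (adjusted p = 0.000717). Cdkn1c, an imprinted inhibitor of the cell cycle, fell by 1.10 ± 0.16 (adjusted p = 8.71e-08) in all 4 settings. Igf2, the fetal growth factor, fell by 0.83 ± 0.15 (adjusted p = 1.14e-05) in dKO and by 0.51 ± 0.16 (adjusted p = 0.0274) in HET hearts, while Mest, another imprinted gene, rose by 0.87 ± 0.21 (adjusted p = 0.000868) and 0.96 ± 0.22 (adjusted p = 0.00235).

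Genes of heart muscle fell. Myh6, the adult myosin heavy chain, had relative signals of 137 to 225 (median 199) at 21 days and of 79 to 143 (median 98.7) at 31 days. The lowest 21-day heart lay inside the 31-day range. Its difference was -0.97 ± 0.13 (adjusted p = 5.04e-09) after median centring, -0.26 (adjusted p = 0.0237) after quantile normalization and -0.32 as deposited. Ckm, muscle creatine kinase, had 12.4 to 20.1 (median 17.4) and 3.95 to 12.3 (median 8.85) with no overlap, and it fell on both scales (-1.01 ± 0.15, adjusted p = 1.38e-07, and -0.77, adjusted p = 9.51e-07). Another, dimmer probe set of Ckm differed by -0.19. Of 11 tested cardiomyocyte markers 10 fell, against 25.0% of all genes and 52.8% of the brightest 20% of genes, in which all 11 lie, and 4 held in all 4 settings. Their median was -0.87 after median centring and -0.15 after quantile normalization, and their summed signal went from a median of 1850 (1300 to 2040) to 977 (720 to 1360). Within the larger array set 9 fell.

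Sarcomere genes showed the same dependence on the scale. Of 15 tested, 12 of them in the brightest 20%, 13 fell and 0 rose, with a median of -0.74, but after quantile normalization 5 fell and the median was -0.15. Tnnt2, cardiac troponin T, fell in all 4 settings (-0.90 ± 0.11, adjusted p = 6.99e-10, and -0.21, adjusted p = 0.0102, after quantile normalization). Tnni3, cardiac troponin I, had no overlap between 215 to 318 and 113 to 196, and fell by 0.88 ± 0.11 (adjusted p = 5.61e-09), but differed by -0.12 (adjusted p = 0.093) after quantile normalization. Actn2, the actin crosslinker of the Z disc, fell by 1.26 ± 0.28 (adjusted p = 0.000248) and by 1.19 after quantile normalization (adjusted p = 0.00101), but not as deposited. Of 14 tested genes of calcium handling and ion channels, 6 of them in the brightest 20%, 9 fell and 0 rose. Falls made up 25.0% of all genes and 52.8% of the brightest 20%. After quantile normalization 4 of the 14 fell, and within the larger array set 2 did. In all 4 settings 2 falls held. Those were Atp2a2, the pump that returns calcium to the sarcoplasmic reticulum (-0.92 ± 0.14, adjusted p = 3.75e-07; -0.39 after quantile normalization), and Hrc, a calcium-binding protein of that store (-1.06 ± 0.16, adjusted p = 2.64e-07; -0.76 after quantile normalization). Hrc had medians of 29.7 and 15.

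Mitochondrial genes fell in larger number. Of 28 tested genes of the citrate cycle and respiratory chain 26 fell and 0 rose. Falls made up 25.0% of all genes and 52.8% of the brightest 20%, in which 26 of the 28 lie. In all 4 settings 13 falls held, against 0.970% of all genes, and the share that held among the brightest 20% was not counted. The median of the 28 was -0.83 after median centring and -0.39 after quantile normalization. That median lay below the sarcomere median in each of the 4 settings. Within the larger array set 20 fell, with a median of -0.60. Idh3a, a subunit of isocitrate dehydrogenase, had 14.7 to 23.4 (median 18.9) at 21 days and 8.4 to 12.1 (median 10.2) at 31 days. Every 31-day heart lay below every 21-day heart, and the fall was 0.92 ± 0.10 (adjusted p = 5.11e-11), or 0.66 after quantile normalization (adjusted p = 1.74e-09). Ndufv1, a subunit of complex I, Fh1, fumarase, and Sdhb, a subunit of complex II, also showed no overlap and fell by 1.0 ± 0.11 (adjusted p = 1.17e-10), 0.91 ± 0.11 (adjusted p = 7.19e-10) and 0.88 ± 0.11 (adjusted p = 1.91e-09).

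Fatty acid oxidation followed. Of 24 tested genes, 18 of them in the brightest 20% of genes, of which 52.8% fell, 18 fell and 1 rose. Of these falls 6 held in all 4 settings, and the median was -0.66, or -0.40 after quantile normalization. Hadhb, the beta subunit of the mitochondrial trifunctional protein, had 78.2 to 139 (median 123) at 21 days and 42.5 to 75 (median 62.4) at 31 days. The ranges did not overlap, and it fell by 0.96 ± 0.12 (adjusted p = 3.35e-09). Acadm, the medium-chain acyl-CoA dehydrogenase, fell by 1.0 ± 0.15 (adjusted p = 2.65e-07), Etfb, which passes its electrons on, by 0.99 ± 0.13 (adjusted p = 1.73e-08), and Acaa2, the last enzyme of the cycle, by 0.94 ± 0.12 (adjusted p = 7.8e-09). Sirt3, the mitochondrial deacetylase, belongs to no list and was one of the 12 largest falls. Its median went from 3.42 (lowest 1.86, highest 4.76) to 1.47 (lowest 0.926, highest 2.32), a fall of 1.24 ± 0.18 (adjusted p = 5.11e-08) that held in all 4 settings. Of 17 tested glycolysis genes, 14 of them in that brightest group, 12 fell and 0 rose, with 1 fall in all 4 settings, Eno3, muscle enolase (-0.92 ± 0.12, adjusted p = 2.67e-09). Gapdh, often used as a reference gene, fell by 0.78 ± 0.12 (adjusted p = 5.14e-07) but differed by -0.02 after quantile normalization.

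**Figure D3:**
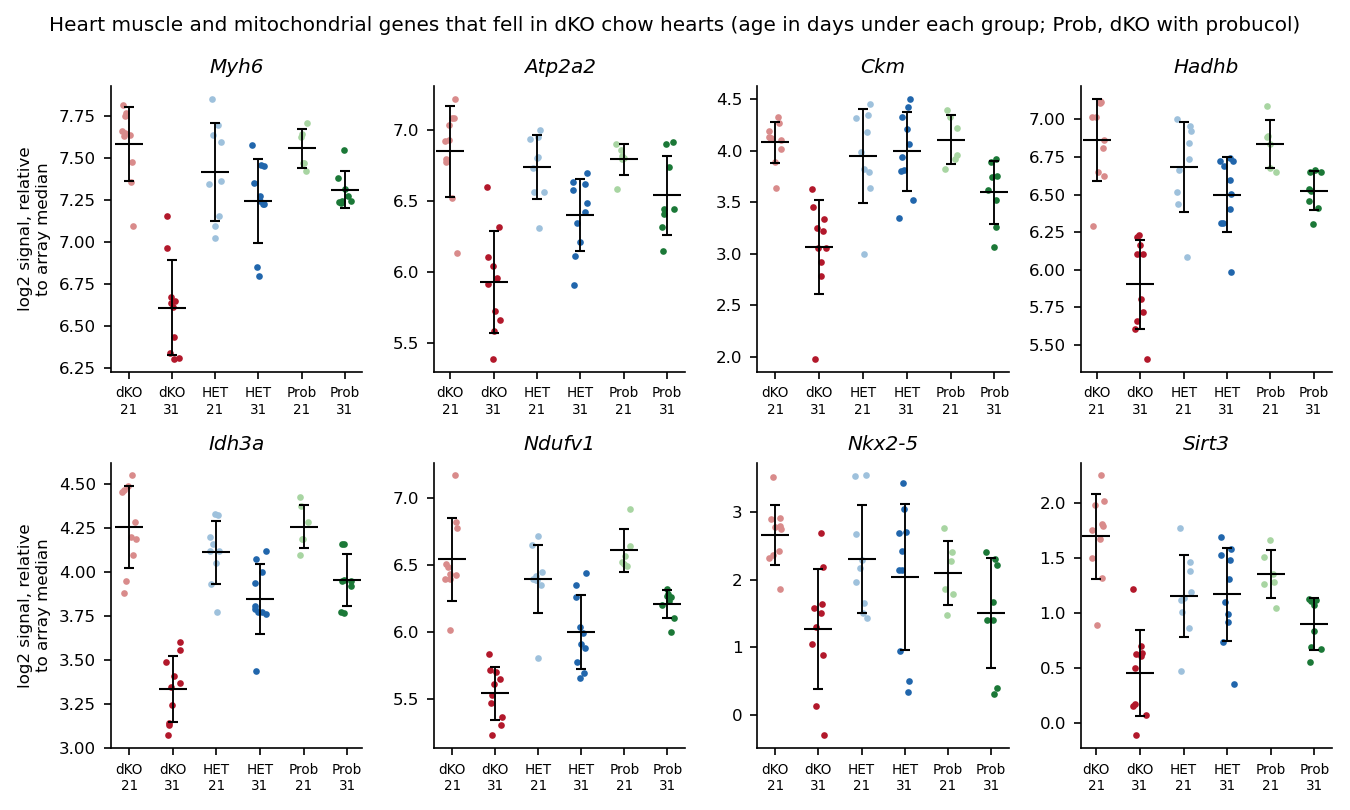
Log2 signal relative to the array median (vertical axes) of 8 heart muscle and mitochondrial genes that fell, by group (horizontal axes: dKO and HET on chow, and dKO with probucol, each at 21 and 31 days). Each point is 1 heart, and black bars give the mean and SD. In dKO chow hearts Ckm, Hadhb, Idh3a and Ndufv1 do not overlap between 21 and 31 days, and the other 4 genes do.

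Genes of general upkeep fell after median centring, and no such fall held in all 4 settings. In the brightest 20%, 52.8% of all genes fell, and 11 of 13 tested ribosomal protein genes and 16 of 23 proteasome subunits lie there. Of the ribosomal protein genes 9 fell and 1 rose, none in all 4 settings, and their median was -0.44, or 0.08 after quantile normalization. Rplp0, a protein of the ribosomal stalk, fell by 0.62 ± 0.10 (adjusted p = 2.02e-06) and differed by -0.01 after quantile normalization. Proteasome subunits fell in 16 of 23 cases, 0 of them in all 4 settings, with medians of -0.40 and -0.14. Psmb1, a subunit of its core, fell by 0.62 ± 0.13 (adjusted p = 7.95e-05). Endothelial markers fell in 5 of 12 cases, against 25.0% of all genes, and 0 of these falls held in all 4 settings. Among them was Emcn, endomucin (-0.52 ± 0.12, adjusted p = 0.000638), of whose other probe sets 1 differed by -0.49 and 1 by 0.06.

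Several of the largest falls were of single regulators. Nkx2-5, a transcription factor of the heart, went from 3.65 to 11.6 (median 6.82) at 21 days to 0.809 to 6.5 (median 2.65) at 31 days. The ranges overlapped in part, and the fall of 1.40 ± 0.36 (adjusted p = 0.00135) held in all 4 settings. Prpf31, a splicing factor, fell by 1.48 ± 0.25 (adjusted p = 3.94e-06), also in all 4 settings. Bmp10, a growth factor of the heart, fell by 1.41 ± 0.37 (adjusted p = 0.00217) and by 1.17 ± 0.38 in HET hearts (adjusted p = 0.0396). Tef, a transcription factor under the circadian clock, fell by 1.04 ± 0.24 (adjusted p = 0.000363) and Cry1, a repressor of the clock, by 0.94 ± 0.19 (adjusted p = 5.91e-05), which fell by 0.81 ± 0.20 in HET hearts too (adjusted p = 0.00428). The time of day at collection is not given in the labels. Entpd5, Akap8l, Ly6g6c, Fcgbp, Ctrl, Sema5b and Ptprv were the other 7 of the 12 largest falls not described above, at -1.46 ± 0.39 to -1.22 ± 0.38, and none of these 7 held in all 4 settings. Fcgbp and Akap8l are among the 80 genes whose levels define the array sets, and Fcgbp (-1.28 ± 0.49, adjusted p = 0.0352) lost its call on leaving out replicate 1, 2, 4, 5 or 9 at 21 days or replicate 2, 3, 4, 6 or 9 at 31 days (-1.25 to -1.08, adjusted p 0.0515 to 0.0884).

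**Figure D4:**
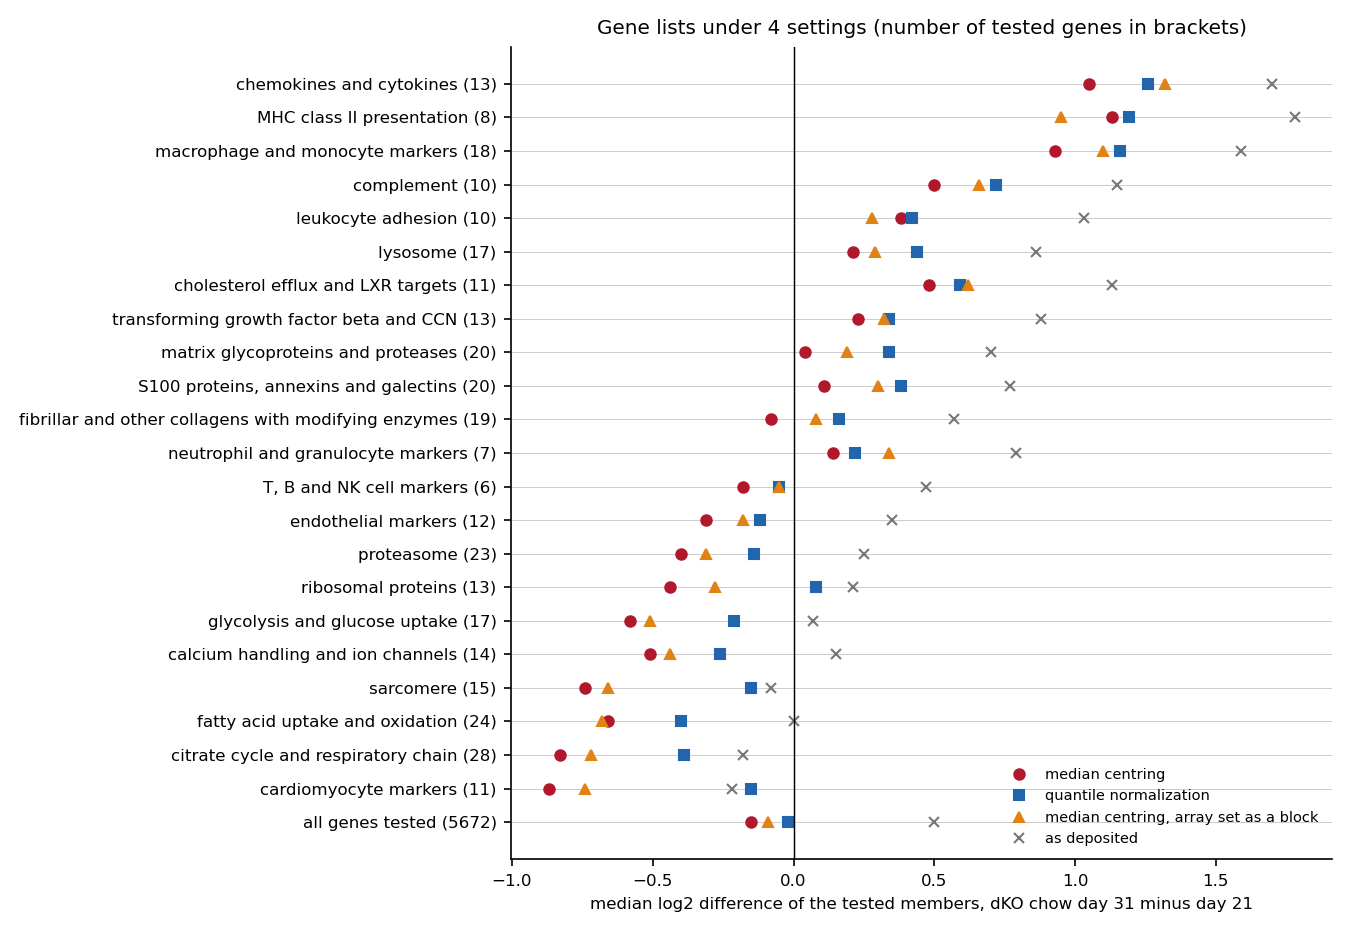
Median log2 difference (horizontal axis, 31 minus 21 days, dKO chow) of the tested members of each gene list (vertical axis) under 4 settings, shown by symbol. The chemokine, MHC class II, macrophage and complement medians lie above 0 in every setting, while those of ribosomal proteins and collagens change sign with the scale, and the median of all genes runs from -0.15 to 0.50.

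The same interval was then compared in HET hearts. There 387 genes rose (6.82%) and 115 fell (2.03%), 502 in all (8.85%), and 195 rises (3.44%) and 39 falls (0.688%) held in all 4 settings. Of the genes that rose in dKO hearts 65 also rose in HET hearts (16.5% of the dKO and 16.8% of the HET rises), and 39 falls were common (2.75% of the dKO and 33.9% of the HET falls). The array sets were unequal there in the other direction, with 2 of 9 HET hearts at 21 days and 6 of 10 at 31 days in the smaller set. The change in dKO minus the change in HET hearts passed the threshold for 1451 genes (25.6%), 260 higher (4.58%) and 1191 lower (21.0%), and for 411 after quantile normalization and 176 with the array set as a block. Each of the 4 settings gave a higher change for 47 genes (0.829%) and a lower change for 19 (0.335%). Ccl8 (4.53 ± 0.49, adjusted p = 7.82e-11), Apod (3.36 ± 0.48, adjusted p = 2.09e-06) and Saa3 (3.03 ± 0.58, adjusted p = 0.00032) were among the 6 largest higher differences, and these held in all 4 settings. Arg1 held too, but 10 of 10 dKO and 6 of 9 HET hearts lay at the floor at 21 days, so its fitted difference (3.35 ± 0.52, adjusted p = 1.11e-05) is neither an exact value nor a bound. The values of Apod and Saa3 are not exact either, since some HET hearts at 31 days lay at the floor. Lox (2.30 ± 0.57, adjusted p = 0.0028), Sprr1a (2.17 ± 0.42, adjusted p = 0.00032), Cd53 (2.04 ± 0.43, adjusted p = 0.000691), Hmox1 (0.93 ± 0.18, adjusted p = 0.000407) and Timp1 (1.56 ± 0.44, adjusted p = 0.00691) held as well.

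Lower differences that held in all 4 settings included Tubg2, a gamma tubulin (-2.52 ± 0.53, adjusted p = 0.000688), and Stk11, the kinase LKB1 (-2.07 ± 0.39, adjusted p = 0.000249). Within the larger array set, with fewer hearts, the change was higher for 27 genes and lower for 0, so no lower difference passed there. In HET hearts Tubg2 rose by 1.43 ± 0.38 (adjusted p = 0.00927) and Stk11 by 0.87 ± 0.28 (adjusted p = 0.0314). In dKO hearts Tubg2 fell by 1.09 ± 0.37 (adjusted p = 0.0183) and Stk11 by 1.20 ± 0.27 (adjusted p = 0.00028). Ckm (-1.06 ± 0.21, adjusted p = 0.000509), Hrc (-1.05 ± 0.23, adjusted p = 0.000955), Eno3 (-0.83 ± 0.17, adjusted p = 0.000487) and Ndufs3, a complex I subunit (-0.81 ± 0.19, adjusted p = 0.00143), were the muscle and metabolic genes named here that held. By list, 24 of 28 citrate cycle and respiratory chain genes had a lower change in dKO than in HET hearts, but 7 did with the array set as a block and 1 in all 4 settings. Of 18 macrophage markers 8 had a higher change, 5 with the array set as a block and 3 in all 4 settings, among them Lyz2 (0.60 ± 0.23, adjusted p = 0.0425) and Ctss (1.08 ± 0.28, adjusted p = 0.00372). For Cd68 the change in HET hearts was itself a rise of 0.59 ± 0.15 (adjusted p = 0.0083), and the difference of changes did not pass (0.47 ± 0.22, adjusted p = 0.0917).

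In dKO hearts on probucol the same 10 days gave 4 genes past the threshold (0.0705%): Cps1, Rbl1 and 1700097N02Rik rose (0.0529%) and Igf2 fell (0.0176%), all in all 4 settings, the first 3 named after their values were seen. With 6 and 8 hearts this comparison is less precise than that on chow. The change on chow minus the change on probucol passed for 149 genes (2.63%), 77 higher (1.36%) and 72 lower (1.27%), of which 54 (0.952%) and 3 (0.0529%) held in all 4 settings. Ccl8 (3.60 ± 0.53, adjusted p = 4.68e-06), Apod (3.24 ± 0.53, adjusted p = 5.22e-05), Lox (2.43 ± 0.62, adjusted p = 0.0202) and Cela1, an elastase (2.38 ± 0.47, adjusted p = 0.00197), had a higher change on chow in all 4 settings. So did Arg1, whose fitted difference (4.36 ± 0.57, adjusted p = 1.81e-07) is again not exact because of the floor. Others were Cd68, whose medians on probucol were 3.29 and 3.25 (1.0 ± 0.24, adjusted p = 0.0145), Ctss (1.51 ± 0.30, adjusted p = 0.00204), Timp1 (2.00 ± 0.48, adjusted p = 0.0155), Lipa (1.64 ± 0.42, adjusted p = 0.0196) and Mt2 (1.41 ± 0.32, adjusted p = 0.00984). Of 17 lysosomal genes 4 did so in all 4 settings. Rgs6, a regulator of G protein signals (-2.26 ± 0.51, adjusted p = 0.0084), and Adam28, a surface protease (-2.51 ± 0.63, adjusted p = 0.0196), differed the other way. Of the cardiomyocyte, sarcomere, calcium handling, fatty acid, and citrate cycle and respiratory chain lists, none had a member whose change differed between the diets in all 4 settings, although 6 of 28 citrate cycle and respiratory chain genes passed after median centring.

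Hearts at 31 days differed among themselves, and 6 genes were set against Cd68 across the 10 hearts. Hmox1 was correlated with Cd68 (r = 0.82, permutation p = 0.00319, adjusted over 6 relations 0.0191; rho = 0.78, permutation p = 0.0104, adjusted 0.0436), as did Col3a1 (r = 0.78, permutation p = 0.0102, adjusted 0.0305; rho = 0.76, permutation p = 0.0145, adjusted 0.0436). Without the 2 hearts farthest from the median of Cd68, replicates 1 and 6, r was 0.56 for Hmox1 (permutation p = 0.158) and 0.51 for Col3a1 (permutation p = 0.194), so neither passed the threshold among the other 8 hearts, which span a narrower range of Cd68. Sprr1a gave r = 0.43 (rho = 0.35), Ndufs3 0.13 (rho = 0.16), Eci1, an enzyme of fatty acid oxidation, 0.02 (rho = 0.10), and Myh6 -0.14 (rho = -0.15), and no permutation p of these 4 was under 0.22. After quantile normalization r was again 0.82 for Hmox1 and 0.78 for Col3a1 (adjusted permutation p = 0.00909 for each). Their rank correlations did not pass on that scale (rho = 0.76, adjusted permutation p = 0.0892, and rho = 0.66, adjusted 0.129). There r was -0.53 for Myh6 (permutation p = 0.138, adjusted 0.207) and -0.21 for Ndufs3, so the size of these relations depends on the scale. All 10 hearts are in the larger array set.

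Short motifs in the promoters were counted over the rises and falls, on both strands of the same 300 bases. GAAANNGAA, a part of the interferon response element, was held by 12.9% of the 302 rises, 8.14% of the 1179 falls and 8.56% of the 4532 tested genes with a promoter, and by 8.56% of all promoters. TTTGAA, the cell cycle homology region, was held by 22.5%, 13.3% and 14.6%, and by 17.9% of all promoters. CACGTG, the E-box, was held by 10.6%, 11.2% and 12.1%, and by 7.15% of all promoters. TCAAGGTCA, the site of oestrogen-related receptors, was held by 0.331%, 0.424% and 0.287%, and by 0.423% of all promoters. Among genes that held in all 4 settings, 193 rises and 44 falls had a promoter. Their shares were 11.4% of rises and 13.6% of falls for GAAANNGAA, and 21.2% and 18.2% for TTTGAA. For CACGTG they were 8.81% and 9.09%, and for TCAAGGTCA 0.518% and 2.27%. Each motif was searched by itself, so matches of different motifs may overlap. These shares are descriptions of sequence and show no binding.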

How the data were processed

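Total RNA from whole hearts was labelled as biotin cRNA and hybridised to Affymetrix arrays, 1 mouse per array, per the labels' protocols. The authors deposited 1 table of linear signal intensity for 12488 probe sets and 88 arrays. The submitters' processing notes name MAS5. Its scaling step was not given in the sources used here. Intensities under the 10th percentile of all values (4.22) were set to it, log2 was taken, and each array was centred on its median. Of the probe sets, 10855 have 1 gene symbol in the platform annotation, 396 have several, and 1193 that are not controls have none. Those in the upper 60% by mean signal were kept, and each gene was represented by its probe set of highest mean, which gave 5672 genes of 8252 symbols. A model of 12 group means over 88 arrays was fitted with limma 3.58.1 in R 4.3.3, with an intensity trend and Benjamini-Hochberg adjustment at 0.05. The fit was tested on simulated data. All 88 arrays share 1 estimate of the spread, and precision is limited by how many arrays a group has.

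The groups and ages come from the labels. Array sets were split at a gap in a score of 80 genes from the residuals, as an earlier look at these data had found. The members and gene lists were chosen with earlier results of these data known. Named genes are the 12 largest rises and falls, up to 4 genes of each list by adjusted p, the 6 largest differences of change each way and the genes of the correlations, from which a selection is printed. Nppa, Nppb, Csf1r, H2-Eb1, Ciita, Ankrd1, Lcn2, Cps1, Rbl1 and 1700097N02Rik were added after their values were seen. Correlations were tested with 100000 permutations in scipy 1.17.1. Promoters are from RefSeq (GRCm38.p6), of which 4532 of the tested genes have one. Same-numbered hearts share only a number, since the correlations of their deviations ran from -0.10 to 0.14. Alternatives of scaling, floor, filter, probe sets, arrays, covariates and array set are given in the closing section.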

Additional observations from a re-analysis of the deposited data

Results flagged for a closer look

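Single hearts stood apart from the other hearts of their group in 16 of 224 combinations of a named gene and an age group. The measure is the gap of the highest or lowest heart to its nearest neighbour divided by the range of the group, and chance gives about 1 such heart in 20 groups. Replicate 3 at 21 days was lowest for H2-Eb1 (0.745), Ccl2 (0.72) and Timp1 (0.591). Replicate 6 at 21 days was highest for Ccl8 (0.611) and lowest for Entpd5 (0.64). Among the hearts at 31 days, replicate 8 was lowest for Ncf4 (0.785), Arg1 (0.618) and Actn2 (0.516). Replicate 1 at 31 days was highest for C1qa (0.592), C1qb (0.509) and Col3a1 (0.523). The other hearts at 31 days that stood apart were each lowest for 1 gene: replicate 5 for Ciita (0.606), replicate 3 for Stk11 (0.594), replicate 4 for Prpf31 (0.495), replicate 2 for Abcg1 (0.491) and replicate 6 for Ckm (0.488). Of these genes, only H2-Eb1 lost its call when the heart was left out.

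The change from 21 to 31 days differed between dKO and HET hearts in all 4 settings for 66 genes, by the test of the difference itself. Among inflammatory genes it was higher in dKO hearts by 4.53 on the log2 scale for Ccl8, 3.36 for Apod, 3.03 for Saa3, 2.58 for Adam8, 2.59 for Ncf4 and 2.04 for Cd53. For Arg1 the fitted difference was 3.35, but most of these hearts lay at the floor at 21 days, so it is not an exact value. Some hearts also lay at the floor for Apod, Saa3, Adam8 and Ncf4, so their differences are not exact either. Smaller differences were those of Isg20 (1.55), Ctss (1.08), C3ar1 (1.08) and Lyz2 (0.60). Among matrix, stress and lipid genes it was higher for Lox (2.30), Sprr1a (2.17), Timp1 (1.56), Mt2 (0.97), Hmox1 (0.93) and Pltp (0.66), and for the erythroid gene Alas2 (1.17). It was lower for Tubg2 (-2.52), Stk11 (-2.07), Ckm (-1.06), Hrc (-1.05), Eno3 (-0.83) and Ndufs3 (-0.81), and no lower difference passed within the larger array set.

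The change differed between dKO hearts on chow and on probucol in all 4 settings for 57 genes. It was higher on chow for Arg1 (4.36, fitted against the floor), Ccl8 (3.60), Apod (3.24), Isg20 (2.11), Cela1 (2.38) and, with some hearts at the floor, Ncf4 (2.18) and Adam8 (2.11). Among macrophage, complement and class II genes it was higher for Ctss (1.51), Cd74 (1.22), Mpeg1 (1.17), C3ar1 (1.16), Cd68 (1.0) and C1qb (0.75). Lox (2.43), Timp1 (2.00), Lipa (1.64), Mt2 (1.41), Alas2 (1.34), Ctsz (1.18), Abca1 (0.97) and Pltp (0.80) were higher as well. It was lower on chow for Adam28 (-2.51) and Rgs6 (-2.26), and Adam28's own fall on chow lost its call without replicate 9 at 21 days (-1.0, adjusted p = 0.051 from limma).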

How the results depend on the processing

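The counts of calls moved with the scaling, the array set and, for probucol, array weights. The main count of 1814 genes was 3617 as deposited, 1092 with quantile normalization and the array set as a block (chosen after seeing the data), 855 with an added minimum of 1.5-fold, and 540 in the larger array set. Leaving out 1 heart gave 1599 to 2069. With the replicate number as a block (replicate block) it was 1604. The HET count of 502 was 950 as deposited, 305 with the array set as a block, 69 in the larger set and 247 with the 1.5-fold minimum. The probucol count of 4 was 15 as deposited, 11 after quantile normalization, 13 with the array set as a block too, 2 with the floor at the 30th percentile, 7 with no filter, 2 in the upper 40% by signal, 199 with array weights, 18 with the actin ratio, 18 with Eif2s3y minus Xist as a covariate and 76 in the larger set. The 1451 differences of change from HET were 844 as deposited, 411 after quantile normalization, 176 with the array set as a block, 130 with both, and 27 in the larger set, where 27 were higher and 0 lower. The 149 differences from probucol were 598 as deposited, 249 after quantile normalization, 542 with array weights, 84 with the actin ratio and 90 with an array set block. The cause was not tested.

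Signs turned as deposited for Col3a1 (0.53), Nppa (0.35), Ciita (0.32), Emcn (0.14), Elane (0.13), Hba-a1 (0.07), Rplp0 (0.03) and Psmb1 (0.03). They turned after quantile normalization for Col3a1 (0.15), Nppa (0.12) and Hba-a1 (0.08), and with the array set as a block too for Col3a1 (0.19), Nppa (0.14), Ciita (0.15) and Hba-a1 (0.13). With the array set alone as a block Col3a1 was 0.01 and Ciita 0.10, with the actin ratio 0.06 and 0.04, and in the larger set Ciita was 0.19. The mean of the probe sets gave 0.30 for Col3a1 and -0.05 for Grn. Of the correlations with Cd68, Eci1 (-0.04) and Ndufs3 (-0.21) turned after quantile normalization, and without the 2 outlying hearts Myh6 was 0.11, Col3a1 0.51 and Hmox1 0.56. Age and disease cannot be told apart within dKO hearts, and signals near the floor limit dim genes.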
